A study of Mus musculus with 16 samples.

Results

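MiR-21 (mmu-miR-21 on the array) and miR-21* (mmu-miR-21*) are the mature microRNAs cut from the left and the right side of a single mouse hairpin, and both were followed through mast cell development, mucosal differentiation and IgE activation. They were selected by name, and they are 2 of the 577 miRNAs and 6 of the 1712 probes on the array. Small RNAs of Balb/c bone marrow cultures were measured on 16 single-colour arrays, 4 for each of 4 groups, each with 100 ng of total RNA. All groups were cultured with 5 ng/ml of IL-3 and 20 ng/ml of stem cell factor (SCF). Progenitors were c-kit+ cells taken with magnetic beads at day 6 of culture. BMMC were bone marrow-derived mast cells after 4 weeks of culture, which the labels call immature. MMC were such cells kept for 5 more days with IL-9 and TGF-beta added, which drives them to a mucosal type. IgE-crosslinked BMMC were sensitised with anti-DNP IgE and challenged for 2 hours with DNP antigen. The groups MMC and BMMC differ in IL-9, in TGF-beta and in culture time, and these cannot be told apart. IgE-crosslinked BMMC and BMMC differ in IgE sensitisation and in antigen, and no group had IgE without antigen, so these cannot be told apart either. The series calls the arrays of a group biological replicates. It does not say whether these were separate animals or cultures, so the p-values rest on the spread among the arrays at hand, part of which may be technical.

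MiR-21 is the guide arm, the strand that Argonaute proteins keep, and miR-21* is the passenger arm, which is usually degraded. In many cell types STAT3, AP-1 and NF-kB raise transcription of the miR-21 primary transcript, and TGF-beta signalling through SMAD proteins raises its level and, in human smooth muscle cells, its cleavage by Drosha. Known targets of miR-21 include the translation inhibitor Pdcd4 and the MAP kinase pathway inhibitor Spry1. In myeloid cells it is known as an abundant miRNA that rises during inflammatory activation.

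The hairpin is shown because the arms are compared below and because their probes cover different parts of them. In RefSeq (GRCm38.p6) the Mir21a gene lies at chr11:86584067-86584158 on the minus strand, inside the span of the protein-coding gene Vmp1 (chr11:86583858-86683836). Both members matched a mature sequence. In the hairpin, capitals mark the mature arms, miR-21 on the left and miR-21* on the right.
Mir21a hairpin: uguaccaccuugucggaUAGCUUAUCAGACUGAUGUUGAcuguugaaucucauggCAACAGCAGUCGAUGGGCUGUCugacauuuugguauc
In the next lines capitals mark the seed, bases 2 to 8, which pairs with target mRNAs.
miR-21 (mmu-miR-21a-5p): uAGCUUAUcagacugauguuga
miR-21* (mmu-miR-21a-3p): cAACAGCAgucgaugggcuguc
miR-21b: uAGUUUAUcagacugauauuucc
miR-21c: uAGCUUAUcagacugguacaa
MiR-21b and miR-21c are the related mature miRNAs in the table. MiR-21c shares its first 15 bases, and so the seed, with miR-21, while miR-21b has another seed. Neither is named on the array. MiRNAs on the array without an entry in this table could not be compared, so others that share the seed may have been measured. The seed of miR-21* was found in no other mature entry of the 1679 in the table.

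Each arm was read by several probes that differ in length. The array's annotation, on mm9, places the miR-21 probes at chr11:86397622-86397641 (A_54_P1307) and chr11:86397622-86397640 (A_54_P1308), and the 4 miR-21* probes all start at chr11:86397584. The arms start 38 bases apart in both builds, so the probes lie on the last 20 and 19 bases of miR-21 and on the last 12 to 15 bases of miR-21*. Capitals mark these bases for the longest probe of each arm.
A_54_P1307 on miR-21: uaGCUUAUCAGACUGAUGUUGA
A_54_P3447 on miR-21*: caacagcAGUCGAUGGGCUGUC
By their mean over all arrays these probes were also the brightest of their arm, and they stand for it below. The miR-21* seed lies mostly outside the bases its probes were placed on.

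The arrays differed in overall brightness along with the groups. The scale factor, which sets the arrays to a common level, averaged 0.601 ± 0.080 for progenitors and 2.42 ± 0.30 for BMMC, and 1.19 ± 0.10 for MMC and 0.590 ± 0.077 for IgE-crosslinked BMMC (SD, n = 4 each). The array's bright corner controls, which are not part of the samples, ran from 1240 to 1602 intensity units on progenitor arrays and from 246 to 580 on IgE-crosslinked arrays. On BMMC arrays they ran from 1155 to 1528 and on MMC arrays from 699 to 916. The file headers give a saturation value of 65320 or 65325 for all IgE-crosslinked arrays and MMC replicates 2 and 3, and of 1272772 to 1341019 for the other 10, while no spot was saturated. Progenitor replicate 4 showed 140 miRNAs well above background against 167 to 181 on the other progenitor arrays. Of the erythroid markers, miR-451 was detected above background on all 4 progenitor arrays and on no mast cell array, and miR-144 on none; of the endothelial and stem cell markers, miR-126-3p was on 3 progenitor arrays and no other, and miR-126-5p on none. The 4 muscle markers and the liver marker were on no array. Of 3 neuronal markers only miR-128 was detected, on 2 progenitor, 4 BMMC, 4 MMC and 2 IgE-crosslinked arrays, and of 5 stromal markers only miR-152, on 4 BMMC and 4 MMC arrays. The lymphoid miR-150 was on 4 BMMC, 1 MMC and 3 IgE-crosslinked arrays, and of 7 epithelial markers miR-141 and miR-200c were each on 4 BMMC arrays. The part of other cell types in the results below was not tested. The granulocyte and monocyte marker miR-223 was well above background on all 16 arrays, with mean log2 levels of 12.35 for progenitors, 8.23 for BMMC, 7.39 for MMC and 8.50 after IgE crosslinking. MiR-132, which is known to rise in activated mast cells, was 3.20 log2 units higher in IgE-crosslinked BMMC than in BMMC (SE 0.19, adjusted p = 1.76e-08). These arrays measure no mRNA, so Kit and the mast cell proteases could not be checked.

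MiR-21 was among the brightest miRNAs of every group. Its probe A_54_P1307 was the brightest of all miRNA probes on 11 arrays, all of them mast cell arrays, was at rank 2 on BMMC replicate 3, and was at rank 5 or 6 on progenitor arrays. Before scaling, the signal was 3396, 3570, 2943 and 4007 intensity units on the progenitor arrays and 17249, 18926, 14959 and 14983 on the BMMC arrays. On the MMC arrays it was 20218, 15925, 16857 and 17744, and on the IgE-crosslinked arrays 8798, 8078, 6086 and 9947. Progenitors had the lowest unscaled signals and IgE-crosslinked BMMC the next, without overlap, whereas BMMC and MMC overlapped. In bulk RNA, a change in the cells' content and a change in the share of cells that hold the miRNA cannot be told apart.

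After scaling, the log2 level of miR-21 was 12.31, 12.69, 12.45 and 12.54 in progenitors and 12.72, 12.78, 12.59 and 12.88 in BMMC. It was 13.90, 13.83, 13.83 and 13.85 in MMC and 13.74, 13.67, 13.64 and 13.96 in IgE-crosslinked BMMC. The arrays thus formed a lower pair of groups, progenitors and BMMC, and a higher pair, MMC and IgE-crosslinked BMMC, with no overlap between the pairs and with overlap inside each. The means were 12.50 ± 0.16, 12.74 ± 0.12, 13.85 ± 0.03 and 13.75 ± 0.14 (SD, n = 4 each) in the same order of groups.

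**Figure D1:**
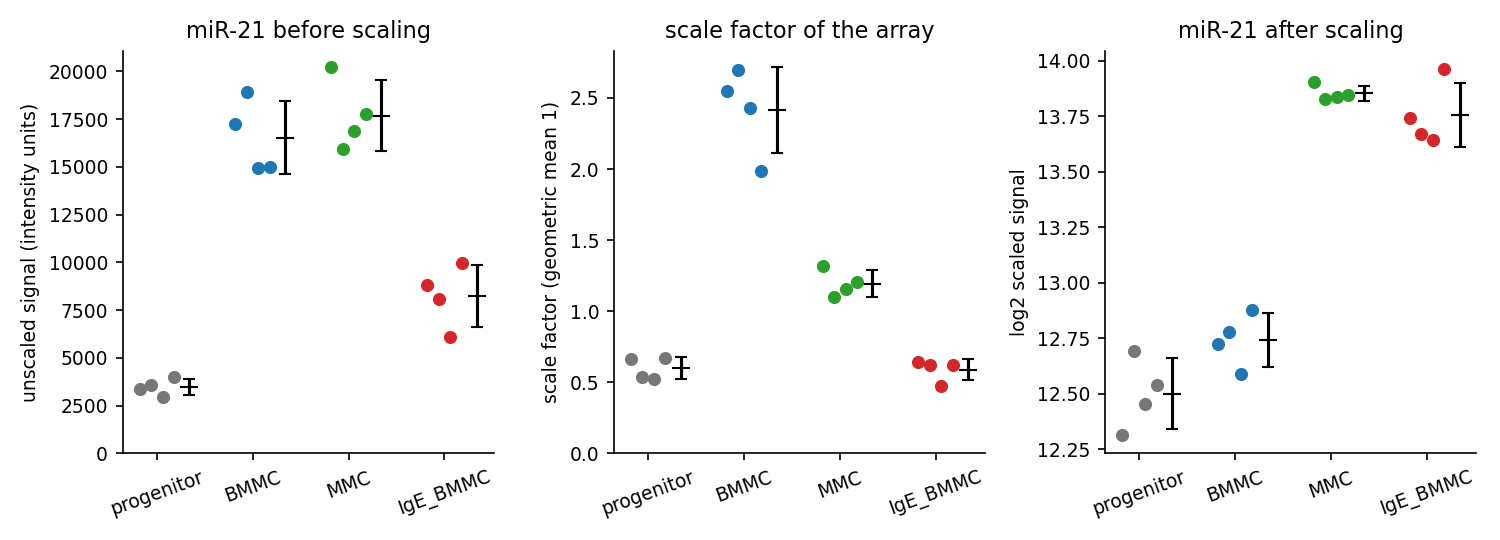
MiR-21 (probe A_54_P1307) by group: unscaled signal in intensity units on the left, the array's scale factor in the middle and the log2 scaled signal on the right. Points are arrays, bars the mean and SD of 4; unscaled BMMC and MMC signals overlap, and after scaling all MMC and IgE-crosslinked arrays lie at 13.64 or higher and all others at 12.88 or lower.

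Within each array miR-21 was read by 20 spots, 10 for each probe. On IgE-crosslinked replicate 3 the software marked 2 low spots as outliers, and 4 spots lay more than 10 times below the array's median miR-21 spot, the lowest at 17.8 against 5354 intensity units. On the other 15 arrays no spot lay that low. On that array 278 of the 2564 spots of probes well above background (10.8%) lay more than 10 times below their probe's median, all between rows 58 and 144, compared with at most 2 spots on any other array. With the median of the spots in place of the mean, miR-21 was 0.99 log2 units higher in IgE-crosslinked BMMC than in BMMC, and without replicate 3 the adjusted p still passed the threshold.

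**Figure D2:**
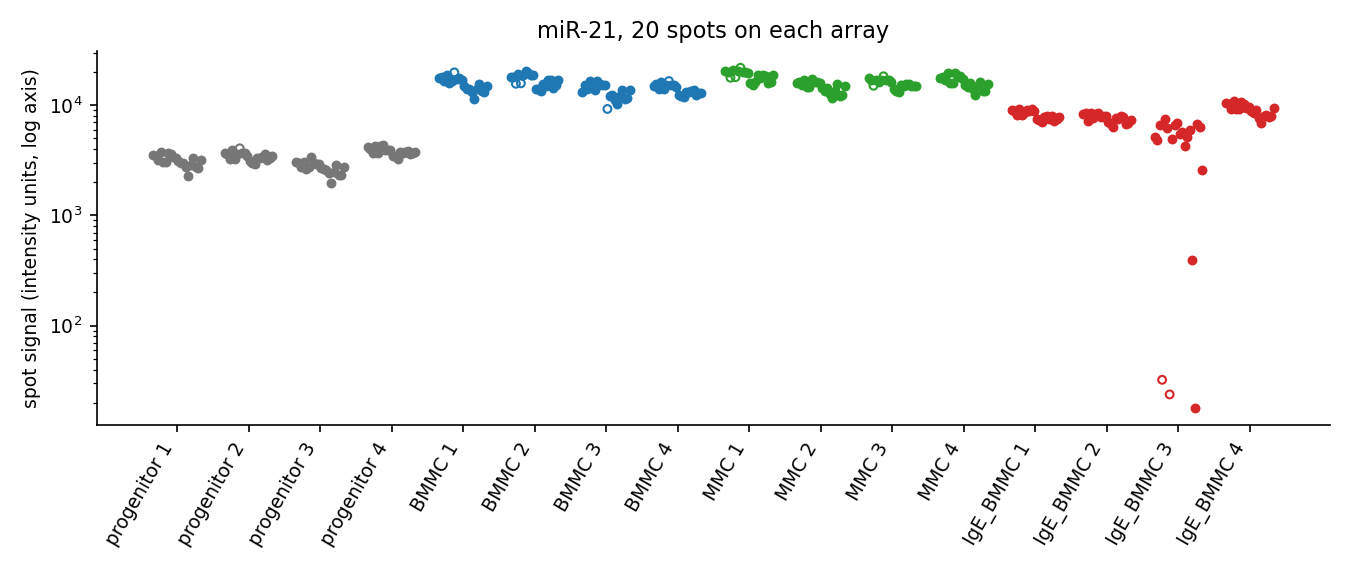
The 20 miR-21 spots of each of the 16 arrays on a log axis in intensity units, with open circles for spots marked as outliers by the software. All spots of an array lie close together except on IgE-crosslinked replicate 3, where the lowest spot is at 17.8.

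BMMC were set against progenitors to follow miR-21 through maturation. MiR-21 was 0.24 log2 units higher in BMMC (1.18-fold, SE 0.10, adjusted p = 0.0410 in limma), while the median of all 217 miRNAs tested was -0.36. In this comparison 74.7% of the tested miRNAs were called, 25.8% higher and 48.8% lower, and 63.6% had groups that did not overlap, which miR-21's groups did. The call was lost without progenitor replicate 1 or 3, BMMC replicate 1, 2 or 4, MMC replicate 1 or 2, or IgE-crosslinked replicate 1 or 2, with adjusted p between 0.0511 and 0.138. Within slides 1 and 2 the difference was 0.21 and 0.27, and neither passed the threshold. The shorter probe A_54_P1308 gave 0.14. The size depended on the scaling: it was 1.79 when the 75th percentile of all probes was used, 1.17 after quantile normalization and 2.25 with no scaling, where the median of all miRNAs was 1.44.

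MMC were compared with BMMC to ask what 5 days with IL-9 and TGF-beta changed. MiR-21 rose by 1.11 log2 units (2.16-fold, SE 0.10, adjusted p = 4.48e-06), the third highest rise among the 207 miRNAs tested. All 4 MMC arrays lay above all 4 BMMC arrays, which was so for 38.6% of tested miRNAs in either direction, and 22.2% were called, 18.4% higher and 3.86% lower. The probe A_54_P1308 gave 1.16. The rise was 1.04 within slide 1 and 1.18 within slide 2, with adjusted p of 0.0287 and 0.0111, and it was 1.13 (adjusted p = 0.000128) with the saturation value of the scan as a term in the fit. On the MMC arrays with the higher saturation value the log2 levels were 13.90 and 13.85, and on those with the lower value 13.83 and 13.83. Leaving out any single array gave 0.99 to 1.16, and all these fits passed the threshold.

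IgE-crosslinked BMMC were compared with BMMC to measure the change after IgE sensitisation and 2 hours of antigen together. MiR-21 rose by 1.01 log2 units (2.02-fold, SE 0.10, adjusted p = 2.91e-06), the seventh highest of 207, and again without overlap of the groups. Here 25.6% of tested miRNAs were called, 17.4% higher and 8.21% lower, and 35.3% had groups that did not overlap. The probe A_54_P1308 also gave 1.01. Within slides 1 and 2 the rise was 0.88 and 1.15, with adjusted p of 0.0273 and 0.00861. With the saturation value as a term it was 1.06 (adjusted p = 0.00276). All IgE-crosslinked arrays had the lower saturation value and all BMMC arrays the higher. The term therefore rests on MMC, the only group with both values, and cannot separate the scan from crosslinking here. Leaving out single arrays gave 0.94 to 1.06, each past the threshold.

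**Figure D3:**
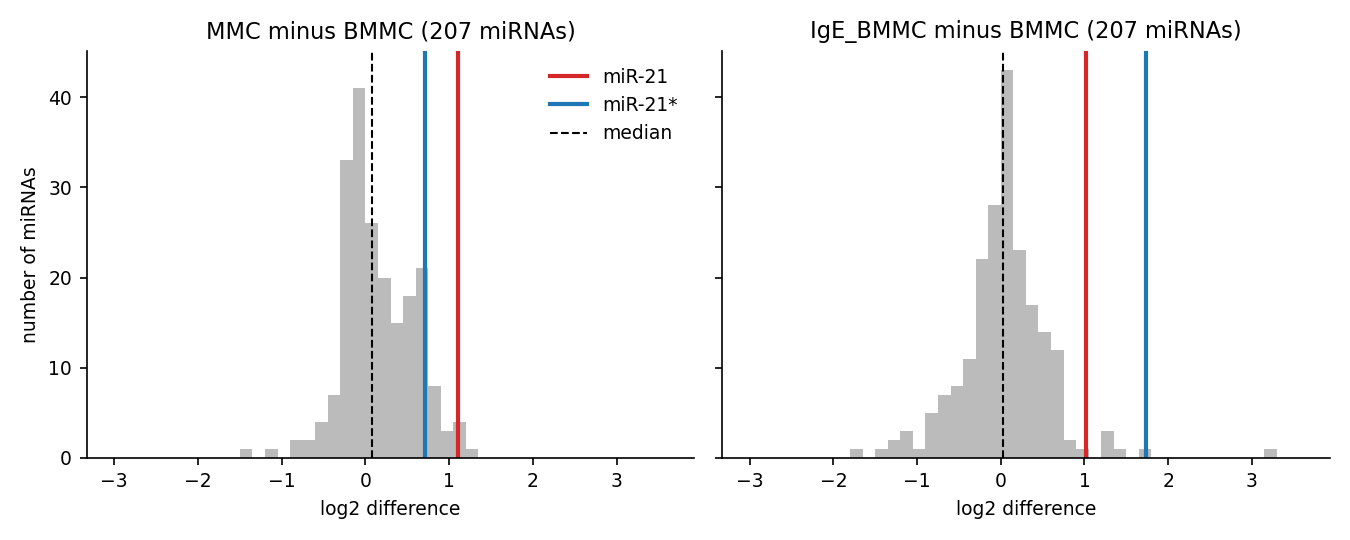
Log2 differences of the 207 miRNAs tested in each comparison (horizontal axis) against the number of miRNAs; red and blue lines mark miR-21 and miR-21*, the dashed line the median. MiR-21 lies in the right tail of both distributions, at 1.11 for MMC and 1.01 for IgE-crosslinked BMMC.

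The rises of miR-21 are rises relative to the other miRNAs of the same arrays. Without scaling, miR-21 differed by 0.10 between MMC and BMMC (adjusted p = 0.540) and was 1.02 log2 units lower in IgE-crosslinked BMMC than in BMMC, while the median miRNA was at -0.91 and -1.90. Taken relative to the median of all tested miRNAs, miR-21 stood at 1.04 in MMC and 0.99 in IgE-crosslinked BMMC under the main scaling. This distance was 1.04 and 0.98 with the 75th percentile of all probes, 1.01 and 0.87 with no scaling and 1.08 and 1.00 in the authors' value table. It was 0.49 and -0.05 after normexp background correction, which adds an offset to all signals. After quantile normalization it was 0.17 and 0.06; that method gives the brightest probe of every array the same value, and A_54_P1307 was the brightest on 11 of these 12 arrays. The difference itself was 0.74 for MMC with the 75th percentile of all probes and no longer passed (adjusted p = 0.0865), and 0.79 for IgE-crosslinked BMMC (adjusted p = 0.0388).

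**Figure D4:**
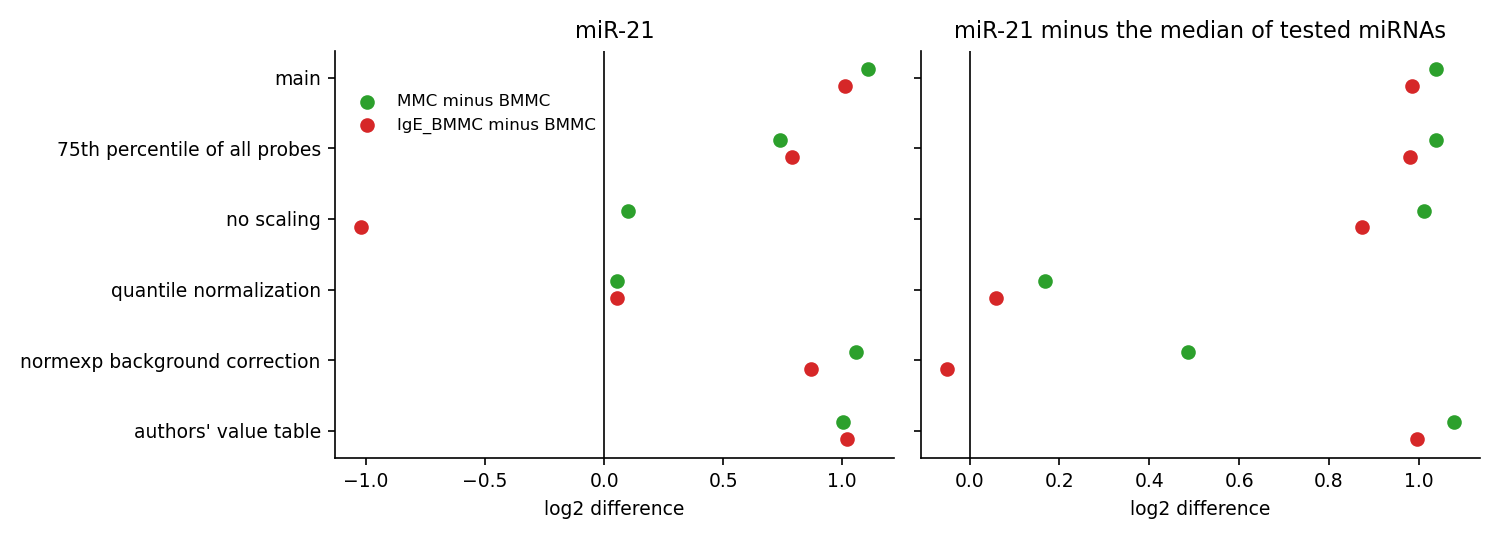
MiR-21 in MMC (green) and IgE-crosslinked BMMC (red) against BMMC under 6 ways of processing: the log2 difference on the left and the same minus the median of all tested miRNAs on the right. With no scaling the left values are 0.10 and -1.02 and the right values 1.01 and 0.87; quantile normalization brings the right values to 0.17 and 0.06.

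The counts of called miRNAs also depended on the scaling. In MMC against BMMC 38 were higher and 8 lower, compared with 1 and 5 with the 75th percentile of all probes, 0 and 152 with no scaling, 16 and 32 after quantile normalization, 148 and 5 after normexp and 7 and 3 in the authors' value table. In IgE-crosslinked BMMC against BMMC 36 were higher and 17 lower, compared with 5 and 24, 1 and 204, 23 and 27, 164 and 4, and 12 and 14 in the same order. In BMMC against progenitors the split was 56 to 106, and it became 142 to 33, 162 to 26, 106 to 58, 25 to 175 and 106 to 45. In MMC against IgE-crosslinked BMMC it was 32 to 18, and became 26 to 10, 160 to 1, 27 to 39, 15 to 117 and 24 to 9. Against progenitors it was 59 to 81 in MMC, and became 115 to 39, 114 to 47, 82 to 63, 33 to 133 and 100 to 44, and 49 to 91 in IgE-crosslinked BMMC, and became 104 to 30, 41 to 85, 77 to 59, 37 to 89 and 88 to 41.

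MMC and IgE-crosslinked BMMC were compared directly. MiR-21 differed by 0.10 log2 units (SE 0.10, adjusted p = 0.543) and the arrays overlapped; of 174 tested miRNAs 28.7% were called, with 18.4% higher in MMC, 10.3% lower there and 44.8% without overlap of the groups. The difference was 0.16 within slide 1 and 0.03 within slide 2, it was -0.05 with the 75th percentile of all probes and -0.02 in the authors' value table, and it was -0.01 without progenitor replicate 4. With no scaling miR-21 was 1.12 log2 units higher in MMC, where the median miRNA was at 0.95. Both comparisons with BMMC use the same 4 BMMC arrays. Against progenitors miR-21 was 1.35 log2 units higher in MMC (2.55-fold, SE 0.10, adjusted p = 8.78e-09) and 1.25 higher in IgE-crosslinked BMMC (2.39-fold, SE 0.10, adjusted p = 2.10e-08). In MMC 74.1% of tested miRNAs were called, 31.2% higher and 42.9% lower, and in IgE-crosslinked BMMC 79.1%, 27.7% higher and 51.4% lower, with 68.8% and 68.9% not overlapping, and miR-21 ranked at 22 of 189 and 20 of 177 from the highest. Both rises kept their sign and passed under the alternatives tried.

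In order, miR-21 was highest in MMC, followed by IgE-crosslinked BMMC, BMMC and progenitors. MMC and IgE-crosslinked BMMC did not differ beyond their spread. In an exact two-sided permutation test over all 70 ways to divide 8 arrays evenly, whose smallest p is 0.0286, miR-21 reached 0.0286 in MMC and in IgE-crosslinked BMMC against BMMC and 0.0571 in BMMC against progenitors. Adjusted over the 16 such tests made on both arms and their difference, these were 0.0653, 0.0653 and 0.0914.

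The passenger arm miR-21* was close to the detection limit throughout. Its unscaled signal on A_54_P3447 was 6.34, 5.06, 9.64 and 17.1 intensity units on the progenitor arrays, and none of these was well above background. On the BMMC arrays it was 14.8, 18.7, 15.6 and 22.8, on the MMC arrays 15.1, 16.1, 13.3 and 13.4, and on the IgE-crosslinked arrays 16.8, 18.6, 8.77 and 15.4, all well above background. On IgE-crosslinked replicate 3, the array with the low patch, 2 of the 5 spots lay more than 10 times below the median spot of 10.6, the lowest at -1.70, and neither was marked as an outlier. The unscaled signals of the 3 mast cell groups overlapped. For comparison, the lowest signal called well above background was 8.15 to 11.2 on BMMC arrays, 9.88 to 12.9 on MMC arrays, 7.01 to 9.80 on IgE-crosslinked arrays and 8.65 to 39.2 on progenitor arrays, the last on replicate 4.

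By group means, shorter miR-21* probes gave less signal. A_54_P3446 still read more than A_54_P3447 on progenitor replicate 4 (18.3 against 17.1) and on IgE-crosslinked replicate 3 (10.1 against 8.77). A_54_P3446, on 14 bases, read 4.47 to 18.3 in progenitors, 6.98 to 13.4 in BMMC, 7.96 to 10.5 in MMC and 9.65 or more in IgE-crosslinked BMMC. It was well above background on 0 progenitor, 2 BMMC, 0 MMC and 4 IgE-crosslinked arrays. A_54_P3445 and A_54_P3444, on 13 and 12 bases, were well above background on no array and read at most 4.13 and 3.11. For 1151 probes never well above background, signals had array medians between -0.58 and 0.25 in the mast cell groups, so the 2 longer miR-21* probes stood above that level.

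**Figure D5:**
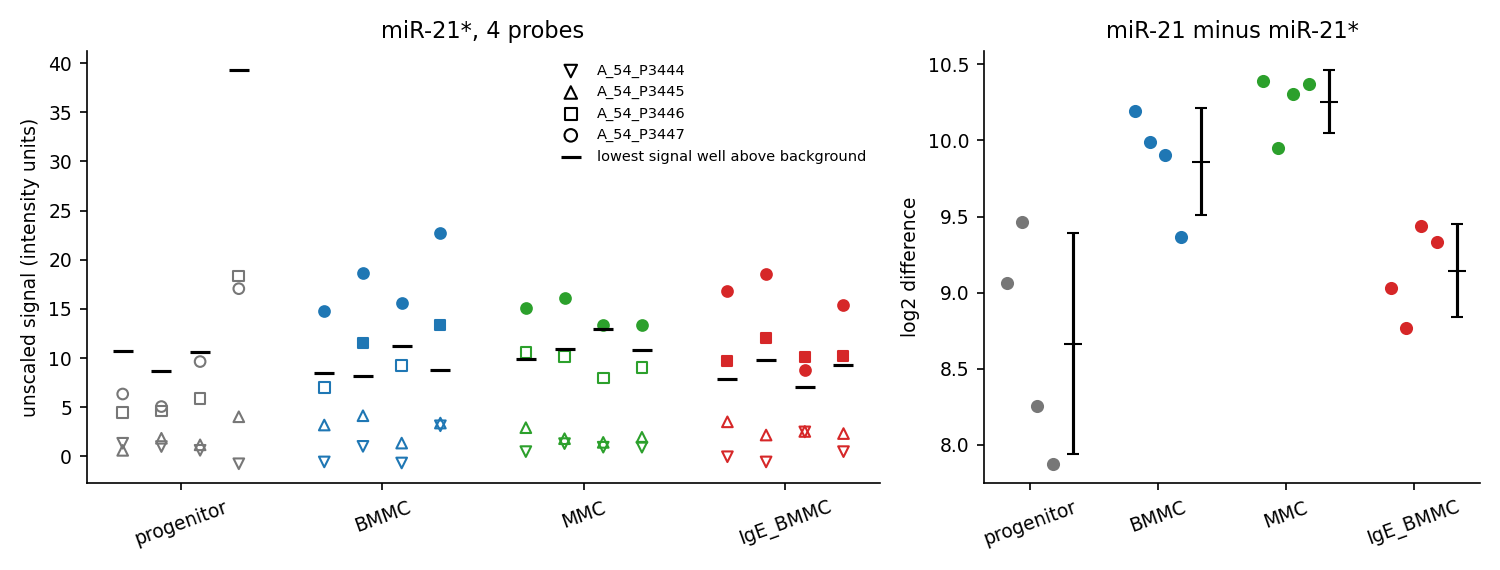
Left: unscaled signals of the 4 miR-21* probes by array in intensity units, filled where well above background, with dashes for the lowest such signal of any probe on the array. Right: log2 level of miR-21 minus that of miR-21* by array, with mean and SD of 4; all IgE-crosslinked arrays lie between 8.77 and 9.44 and all MMC arrays between 9.95 and 10.39.

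After scaling, miR-21* was at 2.53, 2.79, 2.68 and 3.52 log2 units in BMMC, 3.51, 3.87, 3.53 and 3.48 in MMC and 4.71, 4.91, 4.20 and 4.63 in IgE-crosslinked BMMC. The IgE-crosslinked arrays lay above all others of the mast cell groups, and MMC overlapped with BMMC. Between IgE-crosslinked BMMC and BMMC 35.3% of tested miRNAs did not overlap and 25.6% were called. Between MMC and IgE-crosslinked BMMC these shares were 44.8% and 28.7%. MiR-21* was higher in IgE-crosslinked BMMC than in BMMC by 1.73 log2 units (3.32-fold, SE 0.30, adjusted p = 0.000607), the second highest of 207. It was 1.79 with the median of the spots and 1.87 (adjusted p = 0.000935) without IgE-crosslinked replicate 3. The probe A_54_P3446 was well above background on only 2 BMMC arrays, so its difference is not given. In MMC against BMMC the difference was 0.72 (SE 0.30, adjusted p = 0.112), 0.37 within slide 1 and 1.07 within slide 2, and without BMMC replicate 4 it was 0.93 with an adjusted p of 0.0430. MMC lay 1.01 log2 units below IgE-crosslinked BMMC (SE 0.30, adjusted p = 0.0199), a call lost without MMC replicate 4 (-0.97, adjusted p = 0.0538) or IgE-crosslinked replicate 2 (-0.91, 0.0665), with the saturation value as a term (-0.91, 0.132), with no filter on dim miRNAs (adjusted p = 0.0882) and within slide 1 (-1.29, 0.217) and slide 2 (-0.74, 0.151). With a floor of 11.8, the lowest signal well above background on the median array, the rise after crosslinking was 1.06 (adjusted p = 0.00276) and the difference of MMC from BMMC 0.08.

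The direction of these differences depended on the scaling. With no scaling miR-21* was 0.30 log2 units lower in IgE-crosslinked BMMC than in BMMC (adjusted p = 0.280), 0.29 lower in MMC than in BMMC (adjusted p = 0.322) and 0.01 higher in MMC than in IgE-crosslinked BMMC (adjusted p = 0.971). With the saturation value as a term, the difference between IgE-crosslinked BMMC and BMMC was 1.52 and no longer passed (adjusted p = 0.174). Within slide 1 it was 1.65 (adjusted p = 0.108) and within slide 2 it was 1.81 (adjusted p = 0.0211). The median also differed by brightness: 6 probes between 10 and 30 intensity units in BMMC that stayed well above background on every array of both groups had a median unscaled difference of -0.68 after IgE crosslinking, against -1.93 for 64 probes above 1000 units. Probes that dropped below that level after crosslinking are not among the 6. The miR-21* probe A_54_P3447 itself meets these conditions, and its group mean signals differed by -0.27 log2 units. The part of low signal in the result for miR-21* was not tested.

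Against progenitors, where miR-21* was not well above background, only bounds can be given. Each progenitor array was given the probe's own signal or the array's lowest signal well above background, whichever was larger. The mean of the IgE-crosslinked arrays then lay 0.058 log2 units (1.04-fold) above that of progenitors, within its SD of 0.30. So the bound does not establish a higher level of miR-21* in IgE-crosslinked BMMC than in progenitors. The fit gave 0.78 log2 units for this difference (adjusted p = 0.0280), and the measured means were 4.61 and 3.84. It was lost without progenitor replicate 1 (0.58, adjusted p = 0.0998) or 2 (0.57, 0.0975), or without IgE-crosslinked replicate 1 (0.74, 0.0595), 2 (0.67, 0.0799) or 4 (0.77, 0.0520). It was also lost after normexp correction (0.014, adjusted p = 0.909), with no scaling (0.60, 0.0598), with no filter on dim miRNAs (0.0860), with the saturation value as a term (0.57, 0.374) and within both slides. For BMMC and MMC the bound was below the progenitors' own limit, so no fold is given. The fitted differences were -0.95 for BMMC (adjusted p = 0.0106) and -0.24 for MMC (adjusted p = 0.517), and both became positive with no scaling, 0.90 and 0.61.

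Subtracting miR-21* from miR-21 on the same array removes the scale factor, apart from the floor. The result need not be free of array brightness, since miR-21* lay near the detection limit. With no scaling, MMC stood above IgE-crosslinked BMMC by 1.12 log2 units in miR-21 and 0.01 in miR-21*. The median miRNA was at 0.95. The part of array brightness in the arm difference was not tested. The difference between the arms was 9.06, 9.46, 8.25 and 7.88 log2 units in progenitors and 10.19, 9.99, 9.91 and 9.36 in BMMC. It was 10.39, 9.95, 10.30 and 10.37 in MMC and 9.03, 8.77, 9.44 and 9.34 in IgE-crosslinked BMMC. MMC lay above all IgE-crosslinked arrays, and BMMC overlapped with both groups. How many other arm pairs had MMC and IgE-crosslinked groups without overlap was not counted. For single miRNAs in that comparison the share was 44.8%. These are differences in probe signal, and since the probes differ in length and sequence they are not ratios of molecules.

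The arm difference was 1.11 log2 units larger in MMC than in IgE-crosslinked BMMC (SE 0.30, adjusted p = 0.0290 over 12 guide and passenger pairs), the only pair of the 12 called, or 8.33%. In the exact two-sided permutation test it reached 0.0286, the smallest p that test can give, and 0.0653 when adjusted over the 16 such tests. The call was lost without MMC replicate 1, 3 or 4 (1.07, 1.09 and 1.07, with adjusted p of 0.0890, 0.0773 and 0.0868), without IgE-crosslinked replicate 2 (0.99, 0.110), and with the saturation value as a term (0.98, 0.189). Within slides it was 1.45 and 0.77, and neither passed.

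In MMC against BMMC the arm difference was 0.39 (SE 0.30, adjusted p = 0.444), the third highest of 21 pairs, of which 33.3% were called, 9.52% higher and 23.8% lower. It was -0.38 after quantile normalization (adjusted p = 0.285) and 1.03 (adjusted p = 0.00174) with a floor of 11.8. The values above it were 0.68 for miR-140 (adjusted p = 1.55e-05) and 0.53 for miR-22 (adjusted p = 0.189). Among the lowest were miR-29a (-0.78) and miR-17 (-0.76), where the guide fell relative to its passenger arm (adjusted p = 1.41e-05 and 0.000259). The pair of miR-186 was also among them, but its passenger arm was well above background on only 2 MMC arrays. In IgE-crosslinked BMMC against BMMC the difference of the miR-21 arms was -0.72 (SE 0.30, adjusted p = 0.0826; 28.6% of 21 pairs called, 4.76% higher and 23.8% lower). It passed the threshold without progenitor replicate 2 or 4 (-0.72, adjusted p = 0.0360 and 0.0184) and without BMMC replicate 4 (-0.88, 0.0406). It was -0.04 (adjusted p = 0.915) with a floor of 11.8 and -0.47 (adjusted p = 0.645) with the saturation value as a term. In BMMC against progenitors it was 1.20 (SE 0.30, adjusted p = 0.00414; 45.8% of 24 pairs called, 37.5% higher and 8.33% lower), with the passenger arm not well above background in progenitors, so that this value depends on a signal without a measured level.

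MiR-21 stands on lists of miRNAs known from other cell types to answer TGF-beta or inflammatory transcription factors, and the other members were read beside it. Of 15 miRNAs listed as TGF-beta-induced, 9 were tested, and in MMC against BMMC 2 of them rose and 0 fell: miR-21 and miR-24 (0.32, SE 0.08, adjusted p = 0.00916), a miRNA of the miR-23, miR-27 and miR-24 clusters. Over all 207 tested miRNAs 18.4% rose and 3.86% fell, so 2 of 9 is near the background. The median of the 9 was 0.31, beside 0.07 for all 207. The other 7 had differences of 0.04 to 0.45 that did not pass. Of these, miR-192 was well above background on 4 BMMC but 0 MMC and 0 IgE-crosslinked arrays, so its differences are not measured sizes. In IgE-crosslinked BMMC, without added TGF-beta, 4 of the same 9 rose, miR-21, miR-24 (0.49), miR-27a (0.48) and miR-23a (0.39), and 1 fell, miR-494 (-1.21, adjusted p = 0.00193); the median was 0.30, beside 0.03 for all, of which 17.4% rose and 8.21% fell. Of 9 listed as TGF-beta-repressed, 5 were tested and 1 was called in MMC, miR-141 of the epithelial miR-200 family, as lower (adjusted p = 0.0499). It was well above background on 4 BMMC and 0 MMC arrays, and its BMMC level lay under the limit of the MMC arrays, so no size is given. Their median was -0.19, and in IgE-crosslinked BMMC 0 of 5 were called, with a median of 0.02. These medians include miR-141 and miR-200c, which were well above background on 4 BMMC but 0 MMC and 0 IgE-crosslinked arrays.

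Of 16 miRNAs listed as responsive to NF-kB, AP-1 or STAT3, 15 were tested. In IgE-crosslinked BMMC 5 rose and 0 fell, with a median of 0.24 beside 0.03 for all 207, of which 17.4% rose and 8.21% fell. After miR-132 and miR-21, these were miR-212 of the miR-132 cluster (0.56, SE 0.15, adjusted p = 0.0136) and the Kit-targeting pair miR-222 (0.45) and miR-221 (0.34, adjusted p = 0.0467 for both). In MMC 1 rose, miR-21, and 1 fell, miR-212 (-0.49, adjusted p = 0.0286), with a median of -0.15, where 18.4% of all rose and 3.86% fell. In BMMC against progenitors 3 of the 15 rose and 11 fell, with a median of -1.56 beside -0.36 for all, of which 25.8% rose and 48.8% fell. The lowest adjusted p values there belonged to miR-92a (-2.74), miR-18a (-3.33) and miR-17 (-3.25) of the miR-17-92 cluster and to miR-146b, which was higher (1.52). In the same comparison 5 of the 9 TGF-beta-induced miRNAs rose and 3 fell, among them miR-181b (-1.79) and miR-155 (-1.56), and 4 of the 5 TGF-beta-repressed rose, with miR-29b (1.41), miR-29c (1.23) and miR-29a (1.02) foremost.

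MiR-21* was also read beside the other passenger arms. Of 114 names with a star, which include miR-21* itself, 29 were tested in MMC and in IgE-crosslinked BMMC against BMMC. MiR-21* is thus counted among those that rose after crosslinking and those that fell in BMMC against progenitors. In MMC 8 rose and 0 fell, with a median of 0.31 beside 0.07 for all, of which 18.4% rose and 3.86% fell. The lowest adjusted p values were those of miR-24-1* (0.75), miR-29a* (0.60), miR-24-2* (0.82) and miR-186*, which was well above background on 4 BMMC but 2 MMC arrays and is given no size. In IgE-crosslinked BMMC 8 rose and 2 fell, with a median of 0.23 beside 0.03 for all, of which 17.4% rose and 8.21% fell, led by miR-24-1* (1.28), miR-138* (lower), miR-29a* (0.73) and miR-24-2* (1.24). MiR-138* was well above background on 4 BMMC and 0 IgE-crosslinked arrays, so no size is given. Of the 8 higher in MMC, miR-28* was well above background on 3 BMMC but 1 MMC array. Of the 8 higher after crosslinking, miR-146b* was on 4 BMMC and 0 IgE-crosslinked arrays. Both counts thus include arms not well above background on most arrays of the group where they were called higher. In BMMC against progenitors 8 of 32 rose and 17 fell, with a median of -0.76, beside 25.8% and 48.8% of all, among them miR-17* (-2.35), miR-135a* (2.72), miR-15b* (-1.36) and miR-20a* (-2.78).

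Likeness in pattern was measured as Pearson's r of log2 levels with miR-21 over the 16 arrays, for the 135 miRNAs that every group had well above background on 3 or more arrays. The points share scale factors and groups, so r is a description. The highest were miR-24-1* (0.90), miR-140 (0.89), miR-24 (0.88), miR-674* (0.88), miR-24-2* (0.88) and miR-29a* (0.87), beside a median of -0.14 over the 135. MiR-24-1* had levels of 5.19 ± 0.18, 5.76 ± 0.14, 6.51 ± 0.06 and 7.04 ± 0.15 log2 units in progenitors, BMMC, MMC and IgE-crosslinked BMMC. Its highest mean was in the last group, while miR-21 did not differ beyond its spread between MMC and that group. MiR-140 had 7.63 ± 0.21, 7.48 ± 0.05, 8.08 ± 0.03 and 8.19 ± 0.09 (SD, n = 4). The lowest r were those of miR-16 (-0.86), miR-324-5p (-0.78) and miR-322 (-0.76); miR-16, which restrains the cell cycle, went from 11.18 ± 0.08 in progenitors to 10.99 ± 0.07, 10.78 ± 0.03 and 10.87 ± 0.05. With no scaling these 3 correlated at 0.66, 0.68 and 0.51, so the negative sign rests on the scaling.

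Over the 12 mast cell arrays, with 149 miRNAs, the highest r with miR-21 were those of miR-140 (0.93), miR-378 (0.92), miR-142-3p (0.91) and miR-340-3p (0.90), beside a median of 0.13. MiR-142-3p, a miRNA of all blood cells, had 12.67 ± 0.12 in BMMC, 13.19 ± 0.07 in MMC and 13.27 ± 0.16 in IgE-crosslinked BMMC. Its means in MMC and IgE-crosslinked BMMC lay within the larger SD of each other, as did those of miR-21. For miR-21* over the same 12 arrays the highest were miR-27a (0.94), miR-24 (0.93) and miR-30d (0.92), beside a median of 0.28, and with no scaling these were 0.54, 0.48 and 0.48.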

How the data were processed

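Cy3-labelled total RNA (integrity number above 8, per the labels) was measured on 16 Agilent arrays. Feature Extraction 9.5.1.1 read the spots on a design with mm9 coordinates, per the file headers; the deposited values are intensity units after background subtraction, with no scaling between arrays. The authors' deposited log2 value table (599 entries, array medians -0.98 to 0.82) was rebuilt to within 0.0155 from the per-miRNA total signal by raising it to at least 1, subtracting each array's 75th percentile and centring each entry on its median over arrays; it served as an alternative.

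Spots of a probe were averaged without outliers, and a probe counted as well above background on an array when over 50% of its spots did by the software's flag. Arrays were divided by the 75th percentile of the 205 probes well above background on all 16 arrays (geometric mean 1), raised to a floor of 3.03, the lowest scaled signal well above background, and put on the log2 scale; the brightest probe stood for a miRNA. A miRNA needed 3 arrays of a group well above background, and the 217 that had them were fitted in limma 3.58.1 (R 4.3.3), with 4 group coefficients, and tested where 1 of the 2 groups met that condition. P-values were Benjamini-Hochberg adjusted within a comparison and called under 0.05. The fit was tested on simulated data. The number of arrays limits the precision.

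MiRNAs named were the members, called members of the lists (up to 4 a list and comparison, lowest adjusted p first), those most and least like the members, and the arm pairs that moved most. The members and lists were chosen with earlier results of these data known. Same-numbered arrays of different groups deviated together with r of -0.43 to 0.46 (median 0.05 over 24 pairs), so numbers were not taken as pairs. Sequences are from RefSeq.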

Additional observations from a re-analysis of the deposited data

Results flagged for a closer look

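A single value stood apart from the others of its group by the 95% critical value of Dixon's test. MiR-21* in MMC replicate 2 was at 3.87 log2 units, and the nearest MMC array was at 3.53, a gap of 0.862 of the group's range. In all 24 groups of values were looked at, and chance flags about 1 in 20 groups.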

How the results depend on the processing

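The rises of miR-21 in MMC and IgE-crosslinked BMMC over progenitors kept their direction and call under every alternative run, and those over BMMC under all but changes of scaling. No cause of a change below was tested unless the setting's construction gives it. With the 75th percentile of all probes, miR-21 was at 0.74 in MMC against BMMC (not called) and -0.047 in MMC against IgE-crosslinked BMMC, miR-21* at 0.59 and 0.94 in BMMC and MMC against progenitors, and 6 and 29 miRNAs were called in MMC and IgE-crosslinked BMMC against BMMC. With no scaling, miR-21 was at 0.10, -1.02 and 1.12 in MMC against BMMC, IgE-crosslinked BMMC against BMMC and MMC against IgE-crosslinked BMMC, where miR-21* was at -0.29, -0.30 and 0.0099 and 152, 205 and 161 miRNAs were called; miR-21* was at 0.90, 0.61 and 0.60 in BMMC, MMC and IgE-crosslinked BMMC against progenitors, and the arm difference after IgE crosslinking, -0.72, was called. After quantile normalization miR-21 was at 0.053 in both comparisons with BMMC, miR-21* at 0.51 and 0.94 in BMMC and MMC against progenitors, and the arm difference at -0.38 in MMC and -1.52 (called) in IgE-crosslinked BMMC against BMMC. After normexp correction 153, 168 and 132 miRNAs were called in MMC and IgE-crosslinked BMMC against BMMC and in MMC against IgE-crosslinked BMMC; miR-21* was at 0.90 (called) in MMC against BMMC and at -0.88 (called) and 0.014 in MMC and IgE-crosslinked BMMC against progenitors, and the arm difference after crosslinking was -0.92 (called). In the authors' value table those counts were 10, 26 and 33, miR-21 was at -0.017 in MMC against IgE-crosslinked BMMC, miR-21* at -0.25 and 0.42 in BMMC and MMC against progenitors, and the arm difference after crosslinking at -0.89 (called).

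The mean of the detected probes gave miR-21 at 0.19 in BMMC against progenitors (not called) and an arm difference of -0.89 after crosslinking (called). With no filter on dim miRNAs, miR-21* at -1.01 in MMC against IgE-crosslinked BMMC and at 0.78 in IgE-crosslinked BMMC against progenitors lost their calls. With the replicate number as a block, the arm difference in MMC against IgE-crosslinked BMMC, 1.11, lost its call (adjusted p = 0.0531); 11 of the 24 same-numbered pairs of arrays correlated over 0.1. Chosen after seeing the data were the median of the spots (arm difference -0.80 after crosslinking, called), a floor of 11.8 (miR-21* at -0.44 in BMMC against progenitors, not called, and an arm difference of 1.03 in MMC against BMMC, called) and the saturation value as a term. That term rests on MMC, the only group with both saturation values. With that term miR-21* was at 1.52, -0.91 and 0.57 in IgE-crosslinked BMMC against BMMC, MMC against IgE-crosslinked BMMC and IgE-crosslinked BMMC against progenitors, and the arm difference at 0.98 in MMC against IgE-crosslinked BMMC, none called, while 8 and 33 miRNAs were called in IgE-crosslinked BMMC against BMMC and MMC against IgE-crosslinked BMMC. Within slide 1, with 2 arrays a group, no longer called were miR-21 (0.21), miR-21* (-0.79) and the arm difference (1.01) in BMMC against progenitors, miR-21* after crosslinking (1.65), miR-21* (-1.29) and the arm difference (1.45) in MMC against IgE-crosslinked BMMC, and miR-21* in IgE-crosslinked BMMC against progenitors (0.86). Within slide 2 these were miR-21 in BMMC against progenitors (0.27), miR-21* (-0.74) and the arm difference (0.77) in MMC against IgE-crosslinked BMMC, and miR-21* in IgE-crosslinked BMMC against progenitors (0.69).

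Leaving out 1 array at a time gave, in BMMC against progenitors, 0.17 to 0.53 for miR-21, -1.17 to -0.41 for miR-21* (-0.41, not called, without progenitor replicate 4) and 0.93 to 1.46 for the arm difference. In MMC against BMMC miR-21* gave 0.60 to 0.93, and 32 to 70 miRNAs were called, with 70 without progenitor replicate 4. After crosslinking the arm difference gave -0.88 to -0.59, and 35 to 75 miRNAs were called, with 35 without BMMC replicate 2. In MMC against IgE-crosslinked BMMC miR-21 gave -0.012 to 0.17, miR-21* -1.12 to -0.91, the arm difference 0.99 to 1.21 and the count 35 to 88, with 88 without progenitor replicate 4. Against progenitors miR-21* gave -0.44 to 0.19 in MMC, positive without progenitor replicate 4, and 0.57 to 1.32 in IgE-crosslinked BMMC. MiR-21* lies near the detection limit, so its differences are less certain than those of miR-21.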
